A study of Arabidopsis thaliana with 8 samples.

Results

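Auxin response factors (ARFs) are transcription factors that bind auxin-responsive promoters, and several of their mRNAs are cut under the guidance of microRNAs. The 5 *ARF* genes described here are *ARF10*, *ARF16* and *ARF17*, the targets of miR160, and *ARF6* and *ARF8*, the targets of miR167. They were taken by gene identifier from the count tables of 8 RNA-seq libraries, where they are 5 of 37361 genes counted, and all 5 passed the filter on low counts that left 22744 genes for testing. In *Arabidopsis*, a miRNA loaded into ARGONAUTE1 pairs with a nearly complementary site in the mRNA and directs its cleavage, so that a target mRNA can be held low while its gene is transcribed. *ARF6* and *ARF8* belong to the class of ARFs that activate transcription and act in flower maturation and adventitious rooting, whereas *ARF10*, *ARF16* and *ARF17* belong to a class that mostly represses it. *ARF10* and *ARF16* are known for their part in root cap formation, and the balance of *ARF17* against *ARF6* and *ARF8* is known from adventitious root initiation.

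The libraries were made from RNA of 12-day-old seedlings of Columbia-0. The groups are *fry1-6 rdr6-11*, *fry1-6 rdr1-1*, *fry1-6* and wild type (WT), with 2 libraries each, which the series calls biological replicates without saying what separates them. *fry1-6* is a T-DNA line of *FIERY1* (*FRY1*), whose product is a phosphatase that removes 3′-phosphoadenosine 5′-phosphate, an inhibitor of 5′-3′ exoribonucleases. Both double mutants carry the same *fry1-6* allele and in addition a mutant allele of an RNA-dependent RNA polymerase gene, *rdr6-11* of *RDR6* or the T-DNA allele *rdr1-1* of *RDR1*. The labels give growth at 23 °C with 16 h of light, where the methods of the study give another temperature, a shorter day and another library kit. Both *fry1-6 rdr1-1* libraries carry *rdr6* in their genotype label but *rdr1* in their title, and the titles were followed.

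Counts on genes totalled between 15069329 and 26285519 per library, and each of the 5 *ARF* genes had between 122 and 2223 counts in every library. Levels are given as CPM, counts scaled to a library of fixed size, after TMM scaling, a correction for libraries that differ in composition, and levels of different genes are compared only as CPM per kb of exon. A gene is said to have changed where edgeR's quasi-likelihood test gave a Benjamini-Hochberg adjusted p under 0.05 over all 22744 genes, and intervals are 95% intervals of the fitted log2 fold change. The mutated genes do not check the labels: *FRY1* had between 55.0 and 150.8 CPM in the 6 libraries labelled as mutant, against 27.5 and 49.1 CPM in those labelled WT, and reads from a gene with an insertion are still counted. *RDR6* was at 12.1 and 20.7 CPM in *fry1-6 rdr6-11*, 11.0 and 19.5 CPM in *fry1-6 rdr1-1* and 21.5 and 17.3 CPM in *fry1-6*, against 39.5 and 20.2 CPM in WT. *RDR1* was at 38.9 and 20.9 CPM in *fry1-6 rdr6-11*, 28.8 and 19.5 CPM in *fry1-6 rdr1-1* and 17.8 and 12.5 CPM in *fry1-6*, against 19.7 and 9.38 CPM in WT. Neither was called in any of the 5 comparisons, so the counts do not settle the conflicting labels of the *fry1-6 rdr1-1* libraries. The groups are therefore named as labelled, except that *fry1-6 rdr1-1* follows its titles. Chloroplast genes took between 2.29% and 2.80% of the counts in the double mutants and between 0.0342% and 0.173% in *fry1-6* and WT, and leaving organelle genes out changed no call reported below for the 5 genes. The shoot marker *RBCS1A* was at 8852 CPM or more in every library and was called in no comparison. *LHCB1.3*, the other shoot marker, was at 5782 and 4782 CPM in *fry1-6 rdr6-11* against 19474 and 10723 CPM in WT, and was called lower there (log2 fold change -1.52 ± 0.33, SE, adjusted p = 0.0249). It was not called in *fry1-6* or *fry1-6 rdr1-1* against WT, and against *fry1-6* it was called in *fry1-6 rdr6-11* by DESeq2 but not by edgeR (adjusted p = 0.0514). Its part in the *ARF* values of *fry1-6 rdr6-11* was not tested. The flower and seed markers *AP3*, *PI*, *AG*, *CRA1* and *SESA3* were each at 10 counts or fewer, except for *PI* with 29 counts in WT replicate 2. Fewer cells of a type and less RNA per cell cannot be told apart in RNA from whole seedlings. Counts are summed over the exons of a gene, so intact mRNA and cleavage fragments cannot be told apart either.

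The pairing that defines the families is shown first, because the members of each family are grouped by it. The mature miRNAs come from RefSeq (TAIR10.1) and are printed 5′ to 3′ with the seed, bases 2 to 8, in capitals. The 3 *MIR160* loci give a single mature 5′ sequence (chr2:16340282-16340302, chr4:9888986-9889006 and chr5:19009158-19009178), and miR167a-5p (chr3:8108090-8108110) and miR167b (chr3:23406177-23406197) are identical to each other. miR167c-5p (chr3:1306750-1306770) is shifted by a base, so that its seed differs, and miR167d (chr1:11137556-11137577) has the seed of miR167a with another 3′ end.
miR160a-5p, miR160b and miR160c-5p: uGCCUGGCucccuguaugcca
miR167a-5p and miR167b: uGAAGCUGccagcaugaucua
miR167c-5p: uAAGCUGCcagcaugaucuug
miR167d: uGAAGCUGccagcaugaucugg
Transcripts of the *MIR160* and *MIR167* loci and the small RNAs themselves were not analysed here.

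The target sites are printed 5′ to 3′ along the mRNA, with each base that forms no Watson-Crick pair with miR160a-5p or miR167a-5p in capitals, so that the weak points of each pairing can be read.
ARF17 site: uggcauGcagggagccaggca
ARF10 site: AggAauacagggagccaggca
ARF16 site: GggUUuacagggagccaggca
ARF8 site: uagaucaGgcuggcagcuuGU
ARF6 site: GagaucaGgcuggcagcuuGU
The *ARF17* site (chr1:29274189-29274209, plus strand, exon 2 of 2) has 1 base outside Watson-Crick pairs, a G:U pair. The *ARF10* site (chr2:12115741-12115761, plus strand, exon 2 of 4) has 2 and the *ARF16* site (chr4:14704141-14704161, minus strand, exon 3 of 4) has 3. In all 3 miR160 sites these bases lie outside the part that faces the seed. The *ARF8* site (chr5:14633841-14633861, plus strand, exon 13 of 14) has 3 such bases and the *ARF6* site (chr1:10686478-10686498, minus strand, exon 13 of 14) has 4, of which 1 in each faces the seed. The sites of *ARF6* and *ARF8* are identical in 20 of 21 bases, and those of the miR160 targets in 17 or 18 of 21 between pairs of genes. All 5 sites lie within the coding sequence, so they are part of the exons over which the reads were counted.

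These sites were set against the whole transcriptome. With at most 4 bases outside Watson-Crick pairs on the sense strand, miR160a-5p matched 3 of the 31464 genes with mRNAs in RefSeq (0.00954%), and these were *ARF10*, *ARF16* and *ARF17*. miR167a-5p matched 7 genes (0.0223%), *ARF6* and *ARF8* among them. miR167c-5p matched 10 genes, also with *ARF6* and *ARF8*. miR167d matched 7 genes and no *ARF* gene, since *ARF6* and *ARF8* each had 5 such bases in their best match to it. The 18 other *ARF* genes had at least 7 such bases in their best match to any of these miRNAs. A match of letters is a description and not a measured cleavage site. The coordinates are those of TAIR10.1, whereas the authors counted on Araport11, and the summed exon length of all 5 genes is the same in both. None of the 5 genes overlaps another gene in TAIR10.1, so their counts are not shared with an antisense or overlapping gene of that annotation.

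The miR160 targets *ARF10* and *ARF17* were higher in each of the 3 mutants than in WT, and *ARF16* stood between 1.88 and 2.00 times WT without passing the test. *ARF6* stayed between 0.904 and 1.09 times WT, and *ARF8* between 1.5 and 2.09 times WT, neither of them past the test. In *fry1-6* against WT, 2 of the 5 genes were called higher, where 5.03% of all tested genes were called higher. In *fry1-6 rdr6-11* against WT it was again 2 of 5, beside 10.9% of all tested genes, and in *fry1-6 rdr1-1* against WT 2 of 5, beside 5.9%. The 3 comparisons share the same 2 WT libraries and are not independent of each other.

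**Figure D1:**
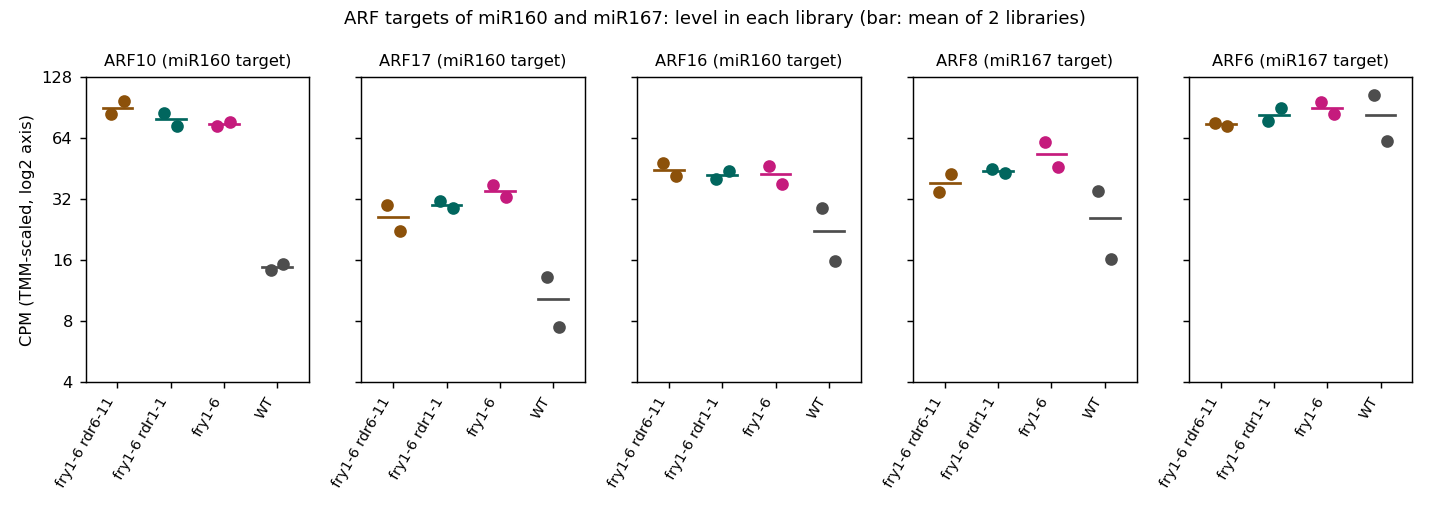
Level of each gene in each library, in TMM-scaled CPM on a log2 axis, with a point for each of the 2 libraries of a genotype and a bar at their mean. The 6 mutant libraries lie above both WT libraries in the panels of ARF10, ARF17 and ARF16, and among the mutants only 1 fry1-6 rdr6-11 library of ARF8 falls below WT replicate 1, while the ARF6 levels overlap. How many of all tested genes separate in this way was not counted, and ARF16 did not pass the test.

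*ARF10* (AT2G28350, chr2:12113889-12116957, plus strand) had the largest difference of the 5. It was at 83.8 and 97.5 CPM in *fry1-6 rdr6-11*, 85.6 and 73.8 CPM in *fry1-6 rdr1-1*, and 73.3 and 77.1 CPM in *fry1-6*, against 14.2 and 15.3 CPM in WT. The mutant libraries did not overlap with WT, and the replicates of each genotype lay close together, with WT at 14.8 ± 0.774 CPM (SD, n = 2). The log2 fold change was 2.35 ± 0.16 (SE, adjusted p = 0.00136) in *fry1-6* against WT, which is a 5.09-fold higher level. It was 2.62 ± 0.16 (adjusted p = 0.000775) in *fry1-6 rdr6-11* and 2.43 ± 0.16 (adjusted p = 0.00109) in *fry1-6 rdr1-1*. Of the 22744 genes tested, 4.42%, 4.34% and 4.20% had a larger log2 fold change in *fry1-6* and its *rdr6-11* and *rdr1-1* double mutants against WT. *ARF10* remained past the threshold when any single library was left out (adjusted p between 0.00326 and 0.0118 over the 3 mutants), and lost its call only in *fry1-6* against WT when the fit was restricted to those genotypes (adjusted p = 0.0589).

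*ARF17* (AT1G77850, chr1:29272074-29275507, plus strand), whose site pairs most fully with miR160, was at 29.9 and 22.2 CPM in *fry1-6 rdr6-11*, 31.3 and 28.8 CPM in *fry1-6 rdr1-1*, and 37.5 and 32.8 CPM in *fry1-6*, against 13.2 and 7.48 CPM in WT. Every mutant library was above both WT libraries. The log2 fold change was 1.77 ± 0.29 (SE, adjusted p = 0.0171) in *fry1-6*, a 3.41-fold higher level. It was 1.34 ± 0.29 (adjusted p = 0.0228) in *fry1-6 rdr6-11* and 1.54 ± 0.29 (adjusted p = 0.0263) in *fry1-6 rdr1-1*. The replicates were less alike than those of *ARF10*, and WT replicate 1 was 1.76 times WT replicate 2. The call was lost when only the genotypes compared were fitted (adjusted p = 0.106, 0.0820 and 0.129 for *fry1-6* and its *rdr6-11* and *rdr1-1* double mutants). It was also lost without *fry1-6* replicate 1 in *fry1-6* (adjusted p = 0.0894), and without either *fry1-6 rdr6-11* replicate in *fry1-6 rdr6-11* (0.108 and 0.0736). For *fry1-6 rdr1-1* it was lost without WT replicate 2 (0.0539), either *fry1-6 rdr6-11* replicate (0.0533 and 0.0538) or either *fry1-6 rdr1-1* replicate (0.137 and 0.0800).

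*ARF16* (AT4G30080, chr4:14703065-14706354, minus strand), which acts with *ARF10* in the root cap, was at 48.0 and 41.5 CPM in *fry1-6 rdr6-11*, 40.2 and 43.9 CPM in *fry1-6 rdr1-1*, and 46.6 and 38.1 CPM in *fry1-6*, against 28.9 and 15.8 CPM in WT. The mutant libraries again lay above both WT libraries, but the WT libraries differed from each other 1.83-fold. Its log2 fold change was 0.92 (95% interval 0.248 to 1.596, adjusted p = 0.137) in *fry1-6*, 1.00 (0.33 to 1.68, adjusted p = 0.0513) in *fry1-6 rdr6-11*, and 0.91 (0.24 to 1.59, adjusted p = 0.0997) in *fry1-6 rdr1-1*. These differences did not pass the test. The one in *fry1-6 rdr6-11* lay at the threshold and passed it with DESeq2 (adjusted p = 0.0214) and with scaling by total counts (0.0127). It also passed with a filter of at least 10 counts in every library (0.0441) and with no filter (0.0450).

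Of the miR167 targets, *ARF8* (AT5G37020, chr5:14629453-14634454, plus strand) was at 34.5 and 42.6 CPM in *fry1-6 rdr6-11*, 44.9 and 42.8 CPM in *fry1-6 rdr1-1*, and 61.4 and 45.9 CPM in *fry1-6*, against 35.3 and 16.2 CPM in WT. The *fry1-6* and *fry1-6 rdr1-1* libraries lay above WT, and 1 *fry1-6 rdr6-11* library lay below WT replicate 1. Its log2 fold change was 1.06 (95% interval 0.22 to 1.91, adjusted p = 0.168) in *fry1-6*, 0.59 (-0.25 to 1.42, adjusted p = 0.279) in *fry1-6 rdr6-11* and 0.77 (-0.07 to 1.61, adjusted p = 0.221) in *fry1-6 rdr1-1*. The interval in *fry1-6* reaches from a 1.16-fold to a 3.75-fold higher level.

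*ARF6* (AT1G30330, chr1:10685822-10690988, minus strand), which acts with *ARF8* and has nearly the same miR167 site, was the most abundant of the 5 genes in WT per kb. It was at 76.4 and 73.8 CPM in *fry1-6 rdr6-11*, 77.4 and 89.8 CPM in *fry1-6 rdr1-1*, and 96.7 and 84.5 CPM in *fry1-6*, against 104.1 and 62.0 CPM in WT. All 6 mutant libraries fell between the WT libraries. The log2 fold change was 0.13 (95% interval -0.47 to 0.72, adjusted p = 0.851) in *fry1-6*, -0.15 (-0.74 to 0.45, adjusted p = 0.717) in *fry1-6 rdr6-11* and 0.01 (-0.59 to 0.61, adjusted p = 0.985) in *fry1-6 rdr1-1*. A difference the size of that of *ARF10* lies outside these intervals, and a change of up to 1.65-fold in *fry1-6* lies within them.

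For 4 of the 5 genes, all but *ARF10*, the replicates differed most in WT. WT replicate 1 was between 1.68 and 2.18 times WT replicate 2 for *ARF6*, *ARF17*, *ARF16* and *ARF8*, but 0.929 times for *ARF10*, where the median over all tested genes was 1.04. In *fry1-6*, replicate 1 was also higher for the same 4 genes, between 1.14 and 1.34 times replicate 2, and 0.950 times for *ARF10*. For these 4 genes it was between 0.812 and 1.34 times in *fry1-6 rdr6-11* and between 0.862 and 1.09 times in *fry1-6 rdr1-1*. Without WT replicate 1, 4 of the 5 genes were called higher in each mutant, with *ARF16* (adjusted p = 0.0223, 0.0125 and 0.0225 for *fry1-6* and its *rdr6-11* and *rdr1-1* double mutants) and *ARF8* (0.0209, 0.0267 and 0.0306) added to *ARF10* and *ARF17*. *ARF6* was not called in those fits.

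**Figure D2:**
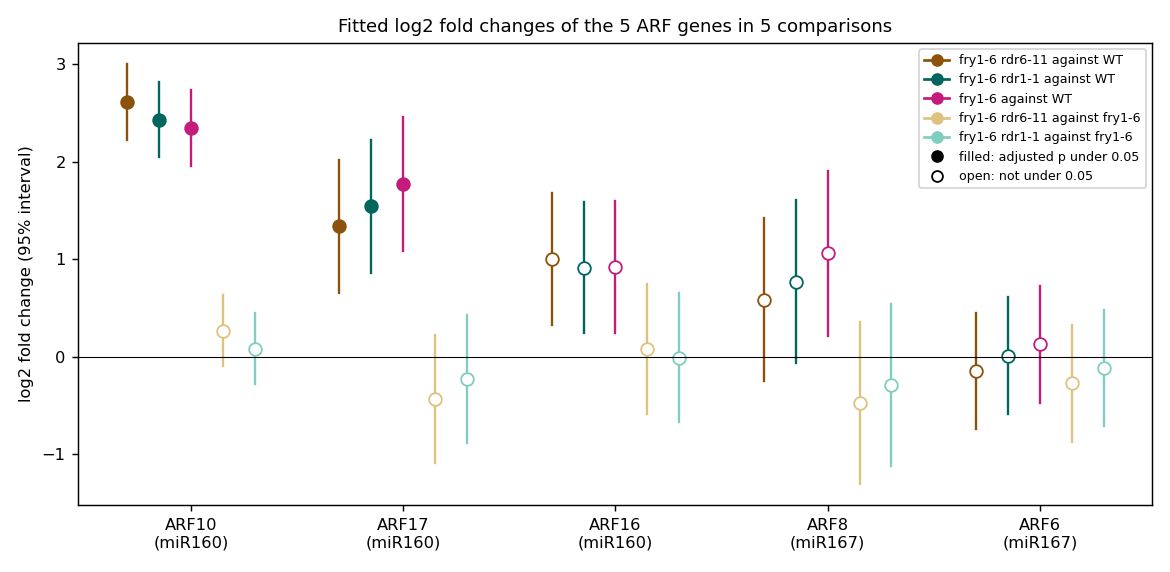
Fitted log2 fold change of each gene in each of 5 comparisons, with its 95% interval, where filled points have an adjusted p under 0.05 and open points do not. The points of the mutants against WT lie between 1.34 and 2.62 for ARF10 and ARF17, near 1 for ARF16, between 0.59 and 1.06 for ARF8 and between -0.15 and 0.13 for ARF6, and all intervals of the double mutants against fry1-6 include 0.

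The families were compared by their median log2 fold changes, as a description, since the families hold 3 and 2 genes. In *fry1-6* against WT the median was 1.77 for the miR160 targets and 0.59 for the miR167 targets, a difference of 1.18, beside a median of -0.03 over all genes tested. In *fry1-6 rdr6-11* the medians were 1.34 and 0.22, a difference of 1.12, beside 0.04 over all genes. In *fry1-6 rdr1-1* they were 1.54 and 0.39, a difference of 1.15, beside 0.05. The ranges of the families touched: the lowest miR160 target in *fry1-6*, *ARF16* at 0.92, was below the higher miR167 target, *ARF8* at 1.06. In both double mutants *ARF16* was above *ARF8*.

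The ratio of the families within a library does not depend on how libraries are scaled to each other. The summed CPM per kb of *ARF10*, *ARF16* and *ARF17* over that of *ARF6* and *ARF8* was 2.04 and 1.92 in *fry1-6 rdr6-11*, 1.78 and 1.55 in *fry1-6 rdr1-1* and 1.38 and 1.57 in *fry1-6*, against 0.588 and 0.713 in WT. The miR160 targets together were thus below the miR167 targets in both WT libraries and above them in all 6 mutant libraries. The higher sum rested on *ARF10* in every mutant library but *fry1-6 rdr6-11* replicate 1. In the others, *ARF16* was below *ARF6* and *ARF17* below *ARF8* per kb. In *fry1-6 rdr6-11* replicate 1 they were above, at 19.1 against 18.8 and 10.07 against 9.62 CPM per kb. The miR160 targets made up between 16.2% and 22.2% of the summed CPM per kb of all 23 *ARF* genes in the mutants and 7.43% and 6.42% in WT. The miR167 targets made up between 10.3% and 13.4% in the mutants and 12.6% and 8.996% in WT. With 2 libraries against 2, the smallest p of an exact two-sided permutation test of such a ratio is 0.333, so no test of it is given.

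**Figure D3:**
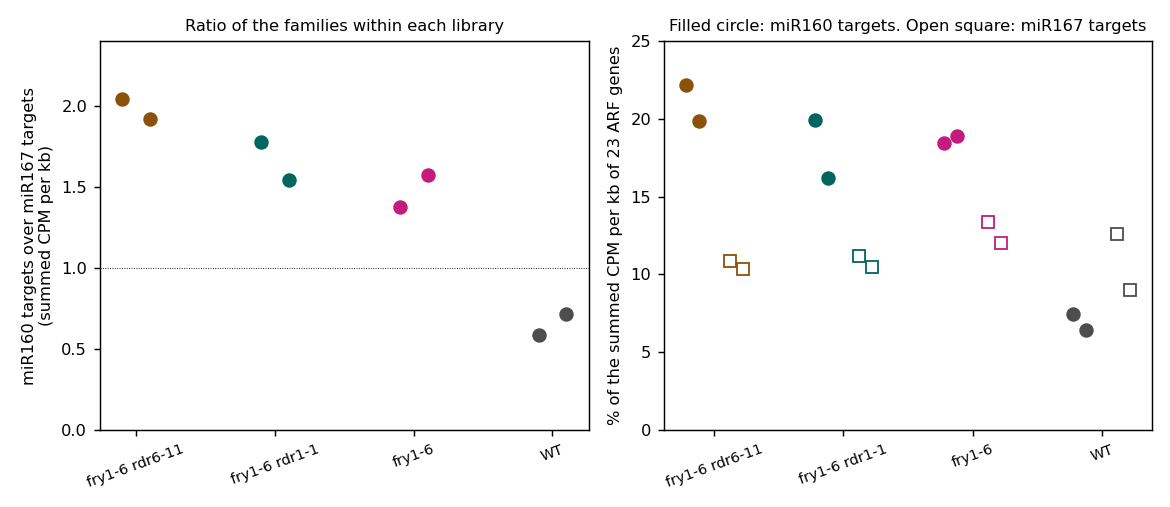
Left, the summed CPM per kb of the miR160 targets divided by that of the miR167 targets in each library, with a dotted line at 1. Right, the share of each family in the summed CPM per kb of 23 ARF genes, in percent. The ratio lies between 1.38 and 2.04 in the 6 mutant libraries and at 0.588 and 0.713 in WT.

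Each gene was also set against *ARF6* within a library, per kb. *ARF10* was between 1.06 and 1.85 times *ARF6* in the mutants, against 0.191 and 0.346 times in WT. *ARF17* was between 0.413 and 0.553 times *ARF6* in the mutants, against 0.173 and 0.165 times in WT. *ARF16* was between 0.728 and 1.02 times *ARF6* in the mutants, against 0.449 and 0.412 times in WT. *ARF8*, which shares its miRNA with *ARF6*, was between 0.512 and 0.718 times *ARF6* in the mutants, against 0.383 and 0.295 times in WT. *ARF8* thus differed from WT in the same direction as the miR160 targets on this measure. All these ratios share *ARF6* as their denominator and are not independent of each other.

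The order of the levels per kb differed between the genotypes. In *fry1-6 rdr6-11*, *ARF10* was highest at 31.2 ± 3.35 CPM per kb (SD, n = 2), and *ARF6* at 18.5 ± 0.448 and *ARF16* at 17.8 ± 1.82 overlapped below it, as did *ARF8* at 10.7 ± 1.58 and *ARF17* at 8.79 ± 1.82. In *fry1-6 rdr1-1* the order was *ARF10* (27.5 ± 2.88), *ARF6* (20.6 ± 2.15), *ARF16* (16.7 ± 1.04), *ARF8* (12.2 ± 0.404) and *ARF17* (10.12 ± 0.585), with no overlap between neighbours. In *fry1-6* the order was the same, with *ARF10* at 25.9 ± 0.931 and *ARF6* at 22.3 ± 2.12, and the libraries of *ARF16* (16.8 ± 2.39) and *ARF8* (14.9 ± 3.06) overlapped above *ARF17* (11.9 ± 1.11). In WT, *ARF6* was highest at 20.4 ± 7.33, and the libraries of *ARF8* (7.16 ± 3.76) overlapped with those of *ARF16* (8.89 ± 3.68) and of *ARF10* (5.09 ± 0.266), which did not overlap with each other. Both *ARF17* libraries (3.48 ± 1.35) were lower than any of these, by less than the spread of *ARF8*. Among the 23 *ARF* genes, *ARF10* ranked 2 or 3 in the mutant libraries, against 13 and 11 in WT.

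The double mutants were compared with *fry1-6*, to ask whether the levels of these targets depend on either polymerase. Chloroplast genes took between 2.29% and 2.80% of the counts in the double mutants, against 0.173% and 0.0509% in *fry1-6*. The mutation of a polymerase gene and this difference between libraries cannot be told apart here. None of the 5 genes was called in *fry1-6 rdr6-11* against *fry1-6*, where 4.76% of all tested genes were called in either direction, and none in *fry1-6 rdr1-1* against *fry1-6*, where 0.264% were. The background of *fry1-6 rdr1-1* against *fry1-6* depended on the setting, with 0 of 22653 genes called without organelle genes and 641 of 23135 by DESeq2. edgeR gave 0 of 5 genes with an unadjusted p under 0.05 in both comparisons, beside 5730 of 22744 genes in *fry1-6 rdr6-11* and 3581 in *fry1-6 rdr1-1*. DESeq2 called 0 of 5 in both, beside 2676 of 22565 genes in *fry1-6 rdr6-11* and the 641 given for *fry1-6 rdr1-1*. For *ARF10* the log2 fold change was 0.27 (95% interval -0.10 to 0.63) in *fry1-6 rdr6-11* and 0.08 (-0.28 to 0.45) in *fry1-6 rdr1-1*, which leaves room for a level between 0.936 and 1.55 times and between 0.823 and 1.36 times that of *fry1-6*. For *ARF17* it was -0.43 (-1.09 to 0.23) and -0.23 (-0.89 to 0.43). For *ARF16* it was 0.08 (-0.58 to 0.74) and -0.01 (-0.67 to 0.65). These intervals are wide, and for *ARF17* they include a level as low as 0.470 times that of *fry1-6* in *fry1-6 rdr6-11*.

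The miR167 targets lay below *fry1-6* in the fit, within its error. For *ARF8* the log2 fold change against *fry1-6* was -0.48 (-1.31 to 0.36) in *fry1-6 rdr6-11* and -0.29 (-1.12 to 0.54) in *fry1-6 rdr1-1*. For *ARF6* it was -0.27 (-0.87 to 0.33) and -0.12 (-0.71 to 0.48). Both miR167 targets and *ARF17* were thus fitted below *fry1-6* in both double mutants, and *ARF10* above it except in *fry1-6 rdr1-1* with scaling by total counts (-0.0039) or without *fry1-6 rdr1-1* replicate 1 (-0.028), none of them past the test. The family medians were 0.08 for miR160 targets and -0.37 for miR167 targets in *fry1-6 rdr6-11*, a difference of 0.45, and -0.01 and -0.20 in *fry1-6 rdr1-1*, a difference of 0.19. Both double mutants share the *fry1-6* libraries in these comparisons.

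The remaining *ARF* genes give the background of the family. Of the 18 others, 10 were tested, and the other 8 (*ARF12* to *ARF15* and *ARF20* to *ARF23*), a group of close paralogs between which reads may be split, had at most 4 counts in any library. None of the 10 was called in any of the 5 comparisons by edgeR. *ARF2*, *ARF3* and *ARF4*, the targets of the trans-acting siRNAs made from *TAS3*, had no unadjusted p under 0.05 in edgeR and no call by DESeq2 in any comparison. Of the 7 others, edgeR gave 1, 3 and 2 with an unadjusted p under 0.05 in *fry1-6* and its *rdr6-11* and *rdr1-1* double mutants against WT. This is beside 4292, 8022 and 6018 of all 22744 genes. DESeq2 called 0, 1 and 0 of the 7, the 1 being *ARF1*, beside 1930 of 24275, 5381 of 24846 and 3019 of 23705 genes. Against *fry1-6*, edgeR gave 0 in *fry1-6 rdr6-11* but 1 in *fry1-6 rdr1-1*, beside 5730 and 3581 of 22744 genes. DESeq2 called 0 of the 7 in both. The medians of the 7 were -0.14, -0.22 and 0.16 in *fry1-6* and its *rdr6-11* and *rdr1-1* double mutants against WT.

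**Figure D4:**
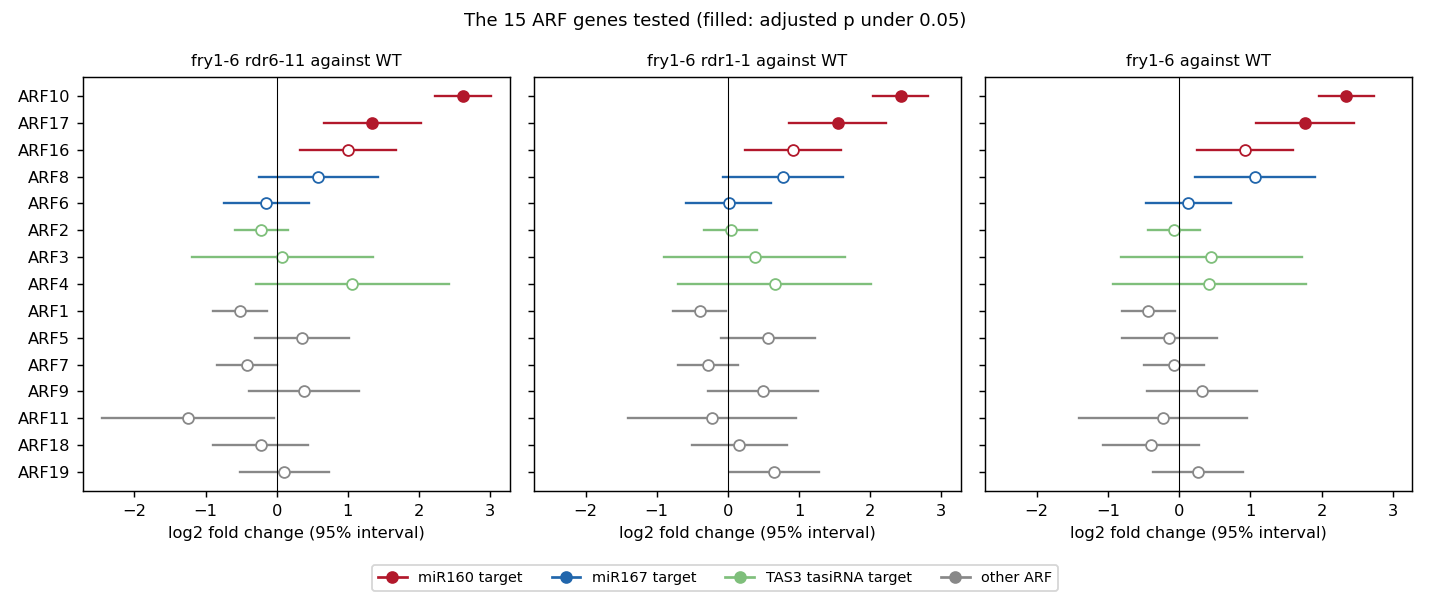
Log2 fold change with its 95% interval for the 15 ARF genes tested, for each mutant against WT. The 2 filled points in each panel are ARF10 and ARF17, and none of the 10 ARF genes outside the families has a filled point.

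Among the tasiRNA targets, *ARF2* was even across libraries, at 332.9 and 324.8 CPM in *fry1-6 rdr6-11*, 382.7 and 400.0 CPM in *fry1-6 rdr1-1* and 344.6 and 383.6 CPM in *fry1-6*, against 378.3 and 384.6 CPM in WT. *ARF3* and *ARF4*, which act in leaf polarity, differed more between the replicates of each double mutant than between the genotype means. *ARF4* was at 45.4 and 100.03 CPM in *fry1-6 rdr6-11*, 30.5 and 79.2 CPM in *fry1-6 rdr1-1* and 51.1 and 42.2 CPM in *fry1-6*, against 46.4 and 23.2 CPM in WT. *ARF3* was at 32.8 and 58.7 CPM in *fry1-6 rdr6-11*, 31.9 and 80.3 CPM in *fry1-6 rdr1-1* and 66.4 and 52.2 CPM in *fry1-6*, against 58.7 and 27.8 CPM in WT.

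*IAR3*, which releases auxin from an amino acid conjugate and is also a miR167 target in *Arabidopsis*, was at 52.1 and 58.7 CPM in *fry1-6 rdr6-11*, 38.2 and 25.9 CPM in *fry1-6 rdr1-1* and 17.1 and 43.3 CPM in *fry1-6*, against 21.1 and 81.8 CPM in WT. In WT and in *fry1-6* its replicates differed by more than any of the genotype means. The log2 fold change against WT was -0.77 ± 0.66 (SE, adjusted p = 0.610) in *fry1-6*, 0.11 ± 0.65 (adjusted p = 0.924) in *fry1-6 rdr6-11* and -0.69 ± 0.65 (adjusted p = 0.554) in *fry1-6 rdr1-1*. *IAR3* had more than 4 bases outside Watson-Crick pairs in its best match to miR167a-5p and was not among the genes which that miRNA matched.

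The group II *GH3* genes encode enzymes that join auxin to amino acids, and *GH3.3*, *GH3.5* and *GH3.6* are known from adventitious rooting as genes downstream of *ARF6*, *ARF8* and *ARF17*. Of 8 genes in the list, 6 were tested. Of these, 4 were called higher in *fry1-6 rdr1-1* against WT, 1 in *fry1-6 rdr6-11* and 1 in *fry1-6*, and none was called lower, beside 5.9%, 10.9% and 5.03% of all tested genes called higher in these comparisons. The medians of the 6 were 0.21, 0.77 and 1.48 on the log2 scale in *fry1-6* and its *rdr6-11* and *rdr1-1* double mutants. *GH3.3* was not called, at -0.27, 1.25 and 0.88 in the same order against WT (edgeR adjusted p = 0.889, 0.226 and 0.450).

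*GH3.9* was the one called in all 3 mutants. It was at 6.67 and 7.03 CPM in *fry1-6 rdr6-11*, 15.3 and 11.6 CPM in *fry1-6 rdr1-1* and 10.6 and 6.89 CPM in *fry1-6*, against 3.22 and 2.76 CPM in WT. The log2 fold change was 1.54 ± 0.28 (SE, adjusted p = 0.0253) in *fry1-6*, 1.20 ± 0.28 (adjusted p = 0.0286) in *fry1-6 rdr6-11* and 2.17 ± 0.28 (adjusted p = 0.00884) in *fry1-6 rdr1-1*. Every mutant library was above both WT libraries.

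*GH3.5*, *GH3.6* and *GH3.17* were called in *fry1-6 rdr1-1* against WT. *GH3.6* was at 114.7 and 79.7 CPM in *fry1-6 rdr1-1* against 30.6 and 38.1 CPM in WT, with a log2 fold change of 1.499 ± 0.27 (SE, adjusted p = 0.0238). *GH3.5* was at 49.4 and 42.5 CPM in *fry1-6 rdr1-1* against 16.4 and 14.8 CPM in WT, with 1.56 ± 0.25 (adjusted p = 0.0173). *GH3.17* was at 27.9 and 14.2 CPM in *fry1-6 rdr1-1* against 7.94 and 7.36 CPM in WT, with 1.46 ± 0.33 (adjusted p = 0.0460). Against *fry1-6* these genes had adjusted p of 0.155, 0.136 and 0.180 in *fry1-6 rdr1-1* by edgeR, whereas DESeq2 called all 3. In the same comparison *ARF6*, *ARF8* and *ARF17* had values below *fry1-6* that did not pass the test, as given above.

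**Figure D5:**
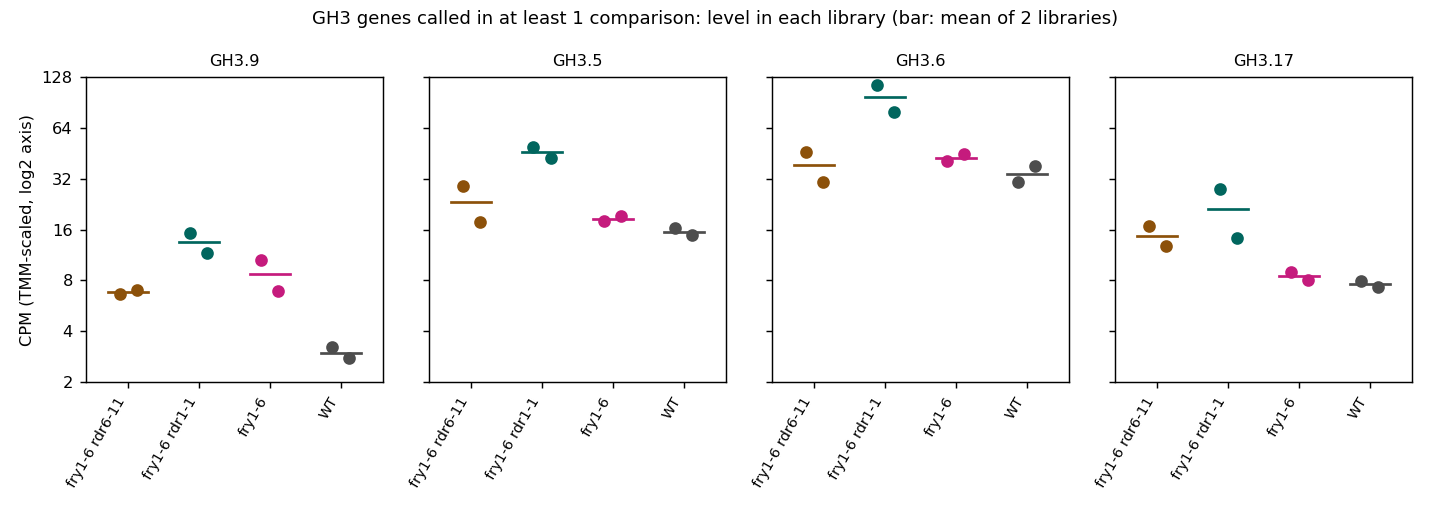
Level in each library, in TMM-scaled CPM on a log2 axis, of the 4 GH3 genes called in at least 1 comparison, with a bar at the mean of the 2 libraries of a genotype. GH3.9 lies above WT in all 6 mutant libraries, and both fry1-6 rdr1-1 libraries of GH3.5 and GH3.6 lie above all others. GH3.17 has its highest mean in fry1-6 rdr1-1, but replicate 2 there (14.2 CPM) lies below fry1-6 rdr6-11 replicate 1 (16.8 CPM).

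Across the 8 libraries the miR160 targets followed each other more closely than the miR167 targets did. Pearson's r of the log2 CPM, over 8 libraries that share the genotype differences, was 0.89 between *ARF10* and *ARF17*, 0.85 between *ARF10* and *ARF16* and 0.94 between *ARF16* and *ARF17*. Between *ARF6* and *ARF8* it was 0.67. *ARF8* had a higher r with each of *ARF16* (0.88), *ARF17* (0.89) and *ARF10* (0.70) than with *ARF6*. *ARF6* had an r of 0.0041 with *ARF10*. These are descriptions over 4 genotypes of 2 libraries each.

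Of 19090 genes outside the family with an average of at least 1 on the log2 CPM scale, those whose pattern was most like the mean of the miR160 targets were *LAF1* (r = 0.998), a MYB factor known from far-red light signalling, AT2G30690 (r = 0.996) and AT2G01008 (r = 0.996). *LAF1* was at 7.05 and 6.16 CPM in *fry1-6 rdr6-11*, 6.95 and 6.18 CPM in *fry1-6 rdr1-1* and 7.22 and 6.04 CPM in *fry1-6*, against 2.00 and 1.41 CPM in WT. AT2G01008 spanned a far wider range, between 174.7 and 514.8 CPM in the mutants against 2.93 and 0.245 CPM in WT. Most like the mean of the miR167 targets, of 19091 genes, were *GLR3.6*, a glutamate receptor-like channel (r = 0.989), AT2G42930 (r = 0.988) and AT4G03260 (r = 0.984). *GLR3.6* was at 12.5 and 14.2 CPM in *fry1-6 rdr6-11*, 16.0 and 15.7 CPM in *fry1-6 rdr1-1* and 25.3 and 17.7 CPM in *fry1-6*, against 14.4 and 5.89 CPM in WT. The genes were ranked by r, so a high r is what chose them.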

How the data were processed

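RNA-seq of *Arabidopsis* seedlings was analysed in 8 libraries of 4 genotypes. The authors mapped paired-end reads to Araport11 with STAR 2.6, reporting 1 position for reads with several, and counted reads per gene with featureCounts 1.6.4. They deposited raw counts, to which no normalization had been applied, with the length of each gene. The strand setting is not given in the sources used here.

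Genes with low counts were removed by filterByExpr (minimum count 10, minimum total 15), and the rest were scaled by TMM and fitted to genotype over all 8 libraries with edgeR's quasi-likelihood model (edgeR 4.0.16, R 4.3.3), with Benjamini-Hochberg adjustment over 22744 genes. The standard error is the log2 fold change over the root of F, and the 95% interval uses the model's 6.81 degrees of freedom. The replicates of a genotype differed beyond sampling noise (chi-square between 17.9 and 97.3 per gene), and the biological coefficient of variation was 27.0%. A p-value sets a genotype difference against the spread between these libraries, estimated over all genotypes and with information shared across genes. DESeq2 1.42.0, other scalings, other filters, a fit restricted to the pair of genotypes in question, a block for the replicate number, omission of organelle genes and of each library in turn were the alternatives. Leaving out a library leaves its genotype with 1, which was assumed to vary like the others. The root part of the tissue marker check is not reported here. Named genes were the 5 members, *IAR3*, *ARF2*, *ARF3*, *ARF4*, the *GH3* and other *ARF* genes called in a comparison, and the 3 genes most like each family by Pearson's r of log2 CPM with a prior count of 2. *ARF1*, called by DESeq2, and the values of *GH3.3*, called in no comparison, were added after the values were seen. The members and lists were chosen with earlier results of these data known. Sequences were read from RefSeq TAIR10.1 with Python 3.11.15, and sites were sought in the exons of 31464 genes on the sense strand without gaps.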

Additional observations from a re-analysis of the deposited data

How the results depend on the processing

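The number of the 5 *ARF* genes called was 2 for each mutant against WT. Fitting only the 2 genotypes compared gave 0 in *fry1-6* and 1 in each double mutant. That fit has fewer degrees of freedom and called 0 of 21585 genes in *fry1-6* against WT. It called 1028 of 22193 genes higher in *fry1-6 rdr6-11* and 76 of 22010 in *fry1-6 rdr1-1*. Leaving out each library in turn gave between 1 and 4 calls in each mutant, the 4 always without WT replicate 1, and 0 in both comparisons with *fry1-6*. The difference of the family medians moved by less than the spread between libraries under every alternative, with leave-one-out ranges of 1.09 to 1.24 for *fry1-6* against WT, 0.83 to 1.38 for *fry1-6 rdr6-11* against WT and 1.06 to 1.25 for *fry1-6 rdr1-1* against WT, and 0.29 to 0.59 and 0.09 to 0.20 in the double mutants against *fry1-6*.

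Scaling by total counts moved the median of all genes to 0.41 in *fry1-6 rdr6-11* against WT and 0.27 against *fry1-6*. It turned *ARF6* to 0.23 in *fry1-6 rdr6-11* against WT and *ARF10* to -0.0039 in *fry1-6 rdr1-1* against *fry1-6*, none past the threshold before or after. *ARF6* in *fry1-6 rdr1-1* against WT, fitted at 0.01, was -0.041 with DESeq2, -0.039 with its size factors and -0.032 with only the genotypes compared, and without a library between -0.32 and 0.43. Without a library, *ARF6* lay between -0.20 and 0.55 in *fry1-6* and between -0.48 and 0.27 in *fry1-6 rdr6-11* against WT, *ARF16* between -0.083 and 0.23 in *fry1-6 rdr6-11* and between -0.19 and 0.14 in *fry1-6 rdr1-1* against *fry1-6*, and *ARF10* between -0.028 and 0.19 in *fry1-6 rdr1-1* against *fry1-6*. The cause of these changes was not tested.

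The replicate numbers were shared by all genotypes, but same-numbered libraries deviated together in WT and *fry1-6* (correlation 0.67) and not in most other pairs (between -0.23 and 0.18), so the numbers were not taken to pair the libraries. With the replicate block, 2, 3 and 2 of the 5 genes were called higher in *fry1-6* and its *rdr6-11* and *rdr1-1* double mutants against WT. This is beside 937, 2126 and 1082 of 22744 genes called higher. *ARF16* in *fry1-6 rdr6-11* was the one added (adjusted p = 0.0445). In the comparisons with *fry1-6*, 0 of the 5 were called, beside 555 of 22744 genes in *fry1-6 rdr6-11* and 45 in *fry1-6 rdr1-1*. *ARF16* in *fry1-6 rdr1-1* against *fry1-6* was 0.012 with the block.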
